A study of Mus musculus with 24 samples.

Results

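The 9 genes described here encode proteins that make, cut or clear the amyloid precursor protein, together with tau. They are *App*, *Bace1*, *Psen2*, *Adam10*, *Aph1a*, *Ncstn*, *Ide*, *Mme* and *Mapt*, taken by name from the 22274 genes in the authors' table, and all 9 passed the filter on low counts in every comparison. RNA was measured in 24 libraries, 3 in each of 8 groups, from Sham mice and from mice whose pituitary stalk had been lesioned electrically (PEL). The stalk joins the hypothalamus to the pituitary gland. The study's methods give the animals as male C57BL/6J mice, and their age is not given in the sources used here. The hypothalamic groups were SHAM and SHAM-GH at day 0, PEL_3d and PEL_3d-GH at day 3, and PEL_10d and PEL_10d-GH at day 10. The suffix GH marks the animals that were also given GH, whose dose and route are not given in the sources used here. The hippocampal groups were HIP-SHAM at day 0 and HIP-PEL_10d at day 10, both without GH. Nothing in the labels says whether libraries of a group came from separate animals, so the p-values measure the spread between these libraries.

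The amyloid precursor protein is a membrane protein of neurons that is cut along alternative routes. Cutting by an alpha-secretase such as ADAM10 falls inside the amyloid beta sequence and prevents its release, whereas cutting by the beta-secretase BACE1 followed by the gamma-secretase complex sets it free. Released amyloid beta is degraded by proteases that include neprilysin and insulin-degrading enzyme, or taken up by glia and carried across vessel walls, and tau is the axonal microtubule-associated protein that forms tangles in Alzheimer's disease.

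Of the 24 libraries, 2 went against their labels in region markers. The library labelled SHAM replicate 1 held 8.79 FPKM summed over 10 hypothalamic markers, against 866 to 6631 FPKM in the other 17 hypothalamic libraries, and it carried the hippocampal and choroid plexus markers. The library labelled HIP-SHAM replicate 1 held 1138 FPKM of the hypothalamic markers, against 1.41 to 3.56 FPKM in the other 5 hippocampal libraries. A further library, titled HIP-SHAM replicate 3 but labelled hypothalamus in its tissue field, carried hippocampal markers and was kept with HIP-SHAM. Total counts ranged from 15095267 to 17973494 per library. Main counts of genes that passed are given with and without the first 2 libraries where a comparison uses them. The exception is the interaction of GH with the lesion, fitted only without the library labelled SHAM replicate 1. Fitted values of single genes against SHAM or HIP-SHAM leave them out unless stated, and *n* = 2 marks a Sham group without its library. FPKM is the authors' level, scaled for length and library depth, but its ratio to the counts of a gene was not fixed between libraries. *Mme* was at 1.88 FPKM on 154 counts in PEL_3d replicate 2 (total 15691068). In PEL_3d replicate 3 (total 16075413) it was at 2.09 FPKM on 128 counts. Levels and overlaps in FPKM can therefore differ from the counts that were tested. Log2 fold changes and adjusted p-values come from edgeR's quasi-likelihood test on the counts, with a threshold of 0.05.

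Levels of the 9 genes spanned more than 100-fold and kept much the same order in both regions. Over the 17 hypothalamic libraries, *App* had the highest level (median 490.3 FPKM, range 413 to 531), followed by *Mapt* (median 123 FPKM). *Adam10*, *Ncstn*, *Bace1* and *Aph1a* lay close together at medians of 26.1, 25.7, 24.7 and 23.0 FPKM, and their ranges overlapped, so that *Adam10* exceeded *Ncstn* in 13 of 17 libraries and *Bace1* exceeded *Aph1a* in 9. *Ide* (median 17.5 FPKM), *Psen2* (8.86 FPKM) and *Mme* (2.22 FPKM) were lowest, and *Aph1a* exceeded *Ide* in 16 of 17 libraries. In the 5 hippocampal libraries *Bace1* (median 28.9 FPKM) stood above *Adam10* (21.4 FPKM) in each of 5, and the other neighbours in the order were as in the hypothalamus. Differences between genes are on the FPKM scale, which is corrected for length.

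**Figure D1:**
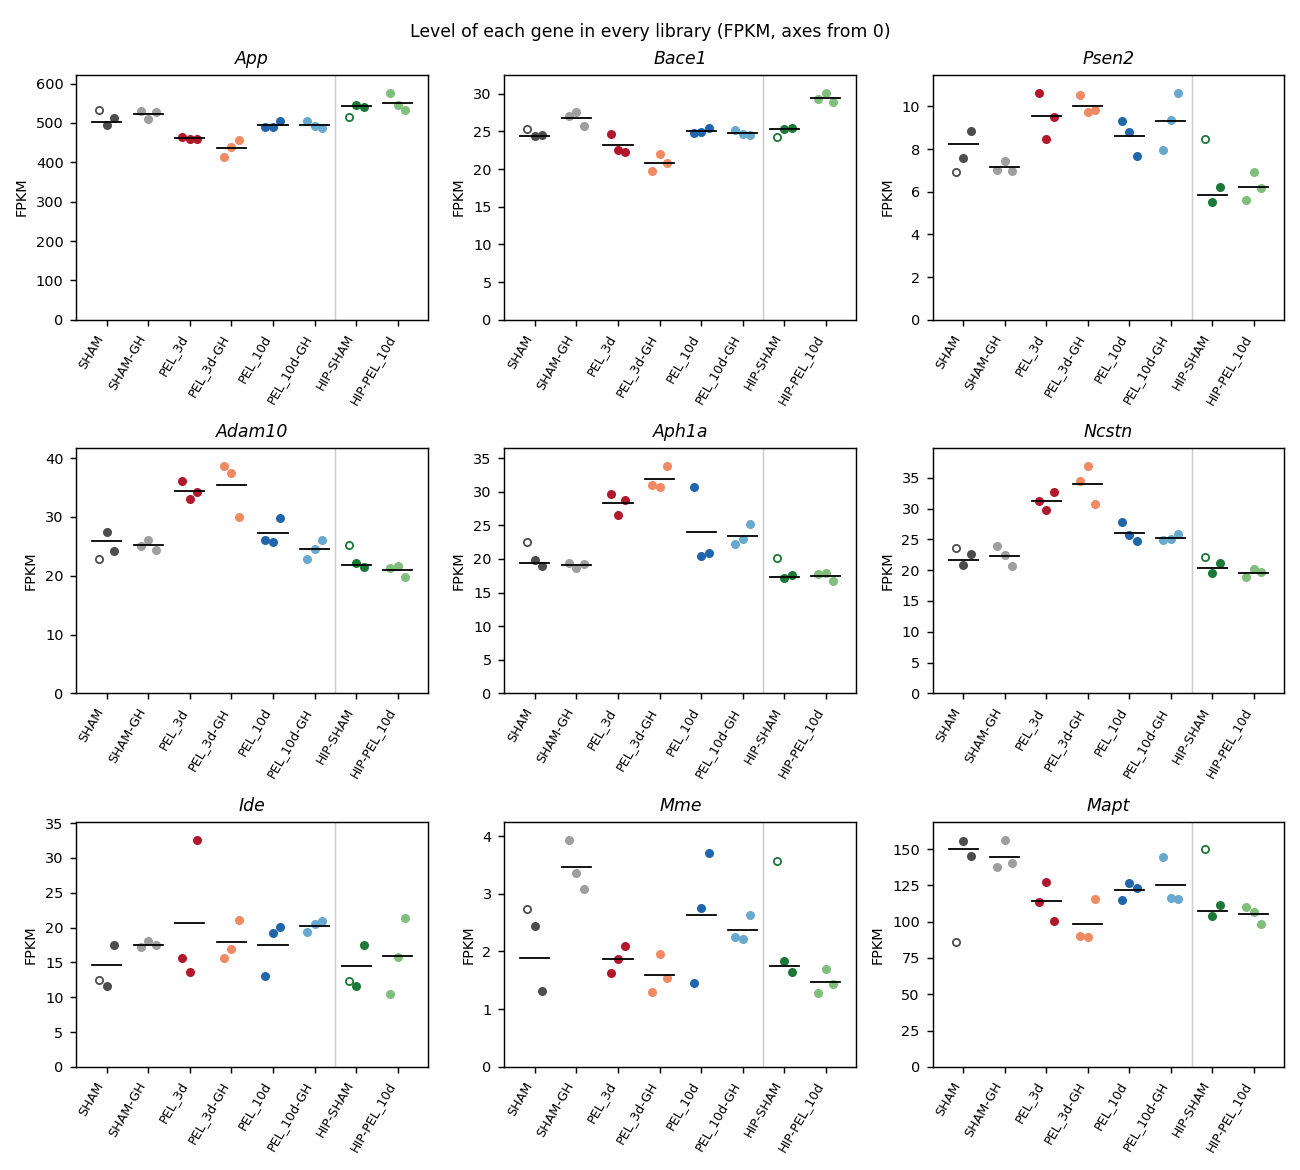
FPKM (y axes, from 0) of each of the 9 genes in every library, by group (x axis); filled points are libraries, open points are the libraries labelled SHAM replicate 1 and HIP-SHAM replicate 1, and bars are group means without those 2. *Adam10*, *Aph1a* and *Ncstn* sit highest in PEL_3d and PEL_3d-GH, *Mapt* sits lowest there among the hypothalamic groups without the open points, and *Ide* spreads widely within most groups.

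At day 3 the lesioned hypothalamus held more *Adam10*, *Aph1a* and *Ncstn* RNA and less *Mapt* RNA than Sham. In PEL_3d against SHAM without the library labelled SHAM replicate 1, these 4 of 9 genes passed the test, 3 higher and 1 lower, where 40.5% of all 14887 genes tested passed (22.3% higher and 18.2% lower). FPKM of the groups did not overlap for 5 of 9, beside 59.4% of all genes. With that library included 2 of 9 passed, *Adam10* and *Ncstn*, both higher (11.4% of all genes, 10.4% higher and 1.04% lower). That *Adam10* call was lost without PEL_3d replicate 1, 2 or 3 or SHAM replicate 3, and that of *Ncstn* without any library but the one labelled SHAM replicate 1 (adjusted p between 0.0507 and 0.172). With the replicate block both were lost (adjusted p = 0.0982 and 0.1005), and *Ncstn* also with DESeq2's size factors in edgeR (adjusted p = 0.0686). In PEL_3d-GH against SHAM-GH 8 of 9 passed, 4 higher (*Psen2*, *Adam10*, *Aph1a* and *Ncstn*) and 4 lower (*App*, *Bace1*, *Mme* and *Mapt*), where 52.1% of all 14743 genes passed (26.9% higher and 25.1% lower). All 8 calls were kept whichever library was left out and under the 7 other settings tried. FPKM of the groups did not overlap for those 8, and the same held for 58.6% of all genes. The median log2 fold change of the 9 was 0.22 and 0.00 in these comparisons, beside -0.01 and 0.00 over all genes.

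At day 10 fewer of the 9 genes passed against Sham than at day 3, as did fewer of all genes. In PEL_10d against SHAM 0 of 9 passed, at edgeR adjusted p-values of 0.603 or more. DESeq2 also called 0, and 0 had an unadjusted p under 0.05 (1.84% of all genes passed, 1.81% higher and 0.0274% lower). *Mapt* alone passed once the library labelled SHAM replicate 1 was left out, lower (9.42% of all genes, 7.98% higher and 1.44% lower). In PEL_10d-GH against SHAM-GH 4 of 9 passed, *Psen2*, *Aph1a* and *Ide* higher and *Mme* lower (31.0% of all genes, 17.7% higher and 13.3% lower). FPKM of the groups did not overlap for 1 of 9 in PEL_10d against SHAM (19.3% of all genes), 4 of 9 without the library labelled SHAM replicate 1 (40.9%) and 7 of 9 with GH (42.3%). The day 3 and day 10 comparisons share their Sham libraries. Every Sham group, the hippocampal one included, was at day 0. Time after surgery, and with GH the duration of its use, therefore cannot be told apart from the lesion.

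**Figure D2:**
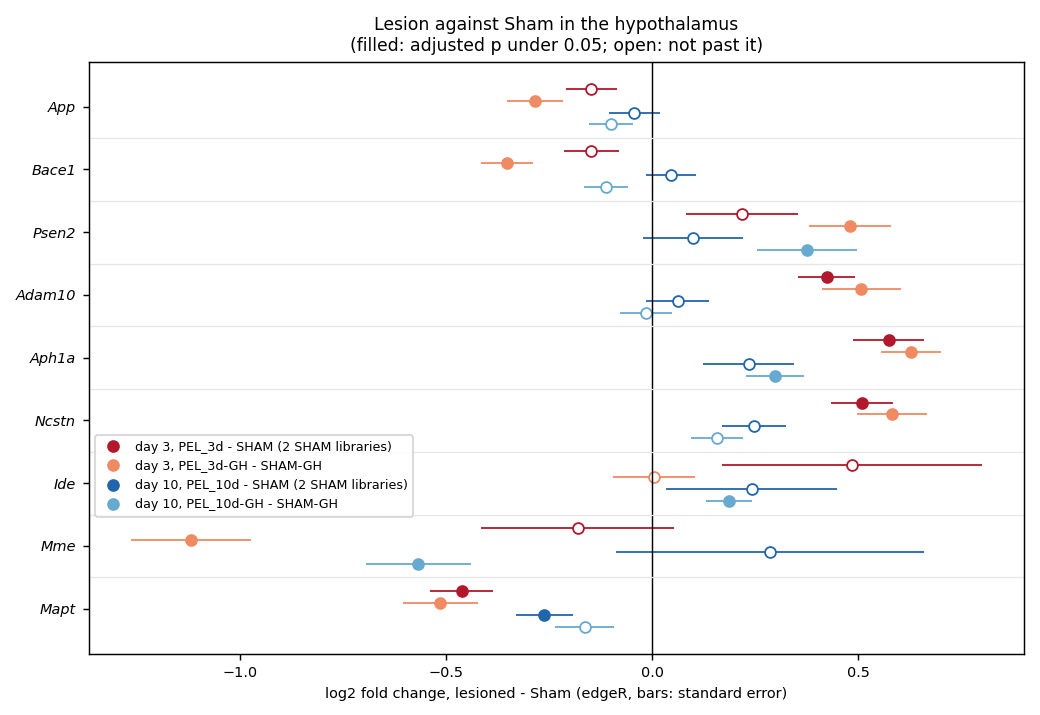
Log2 fold change of each gene (x axis, lesioned minus Sham, edgeR, bars show 1 standard error) in the hypothalamus at day 3 and day 10, without and with GH, where the SHAM group has 2 libraries. Filled points passed the adjusted p threshold; *Aph1a* and *Ncstn* lie near 0.5 to 0.6 at day 3 and between 0.16 and 0.30 at day 10, while *App* lies below 0 in all 4 comparisons and passed in 1.

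*App* (ENSMUSG00000022892; chr16:84949685-85173766, minus strand, GRCm38), the precursor itself, was lower at day 3. It was measured at 495 and 512 FPKM in the SHAM libraries of hypothalamic profile, 533 FPKM in the library labelled SHAM replicate 1, and 531, 509 and 529 FPKM in SHAM-GH. PEL_3d libraries held 465, 459 and 459.8 FPKM and PEL_3d-GH libraries 413, 439 and 457 FPKM, so that every day 3 library lay below every Sham library. The fall in PEL_3d-GH against SHAM-GH was 0.29 on the log2 scale and passed (437 ± 21.9 against 523 ± 11.8 FPKM, SD, n = 3; adjusted p = 0.00529). In PEL_3d against SHAM (*n* = 2) the log2 fold change was -0.15 with a standard error of 0.06 (adjusted p = 0.0771). It passed there with DESeq2 (-0.14, adjusted p = 0.0206) and in 1 fit over all groups (-0.14, adjusted p = 0.0379). At day 10 PEL_10d (490.0, 490.3 and 505 FPKM) overlapped SHAM, and PEL_10d-GH (506, 493 and 486 FPKM) lay below SHAM-GH without passing (adjusted p = 0.183).

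*Bace1* (ENSMUSG00000032086; chr9:45838580-45864399, plus strand) encodes the beta-secretase that makes the first cut towards amyloid beta, and its level was lowest in PEL_3d-GH. SHAM libraries held 24.4 and 24.5 FPKM (25.4 FPKM in the library labelled replicate 1) and SHAM-GH libraries 27.0, 27.6 and 25.7 FPKM. PEL_3d libraries held 24.7, 22.5 and 22.2 FPKM and PEL_3d-GH libraries 19.8, 22.0 and 20.7 FPKM. *Bace1* fell by 0.35 on the log2 scale in PEL_3d-GH against SHAM-GH (20.8 ± 1.09 against 26.8 ± 0.963 FPKM, SD, n = 3; adjusted p = 0.000975), and in PEL_3d against SHAM (*n* = 2) groups overlapped (adjusted p = 0.1). At day 10 all 3 PEL_10d libraries (24.7, 24.95 and 25.5 FPKM) lay above both SHAM libraries, while all 3 PEL_10d-GH libraries (25.1, 24.7 and 24.5 FPKM) lay below the SHAM-GH libraries. Neither passed, and the difference between these effects had a log2 value of -0.16 ± 0.07 (SE; edgeR interaction term, adjusted p = 0.548).

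*Adam10* (ENSMUSG00000054693; chr9:70678997-70780229, plus strand), the principal alpha-secretase of neurons, rose at day 3 and overlapped Sham at day 10. PEL_3d libraries held 36.2, 33.0 and 34.2 FPKM against 27.5 and 24.2 FPKM in SHAM and 22.9 FPKM in the library labelled SHAM replicate 1. The groups did not overlap, and the rise over SHAM (*n* = 2) was 0.42 ± 0.07 on the log2 scale (SE; adjusted p = 0.000759). In PEL_3d-GH, at 38.6, 37.5 and 30.0 FPKM, it was 0.51 ± 0.10 above SHAM-GH, at 25.1, 26.1 and 24.3 FPKM (SE; adjusted p = 0.00145). At day 10 the levels were 26.1, 25.7 and 29.8 FPKM in PEL_10d and 22.9, 24.5 and 26.0 FPKM in PEL_10d-GH, and both groups overlapped their Sham groups.

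The gamma-secretase complex cuts within the membrane and consists of a presenilin, nicastrin, an APH1 protein and PEN-2. *Ncstn* (ENSMUSG00000003458; chr1:172066013-172082795, minus strand) encodes nicastrin, which holds the substrate. It was measured at 20.8 and 22.6 FPKM in SHAM (23.6 FPKM in the library labelled replicate 1), at 31.3, 29.8 and 32.7 FPKM in PEL_3d and at 27.9, 25.7 and 24.8 FPKM in PEL_10d. Both lesioned groups lay above all SHAM libraries, but only at day 3 did the difference pass (log2 fold change 0.51 ± 0.08, SE, adjusted p = 0.000429 at day 3; adjusted p = 0.0876 at day 10). With GH the levels were 23.9, 22.5 and 20.8 FPKM in SHAM-GH, 34.5, 36.9 and 30.7 FPKM at day 3 and 24.9, 25.1 and 25.9 FPKM at day 10. The day 3 rise was 0.58 ± 0.08 (SE; adjusted p = 0.000286), and at day 10 the groups again did not overlap while the adjusted p was 0.084.

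*Aph1a* (ENSMUSG00000015750; chr3:95893969-95898288, plus strand) encodes the scaffold subunit and had the largest fitted rise of the 9 genes at day 3, both with GH and without it once the library labelled SHAM replicate 1 was left out. SHAM libraries held 19.9 and 19.01 FPKM (22.5 FPKM in the library labelled replicate 1), PEL_3d libraries 29.7, 26.6 and 28.8 FPKM, and PEL_10d libraries 30.7, 20.5 and 20.9 FPKM. One PEL_10d library therefore stood at the day 3 level while the other 2 lay just above the SHAM libraries of hypothalamic profile, and the day 10 difference did not pass (adjusted p = 0.233). The day 3 rise was 0.57 ± 0.09 on the log2 scale (SE; adjusted p = 0.000465). SHAM-GH libraries held 19.4, 18.7 and 19.3 FPKM, PEL_3d-GH libraries 31.1, 30.7 and 33.8 FPKM and PEL_10d-GH libraries 22.3, 23.0 and 25.2 FPKM. With GH the rise was 0.63 ± 0.07 at day 3 (SE; adjusted p = 7.12e-05) and 0.30 ± 0.07 at day 10 (SE; adjusted p = 0.0104). The day 10 call was lost without SHAM-GH replicate 1 (adjusted p = 0.052) and in 1 fit over all groups (adjusted p = 0.0781).

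*Psen2* (ENSMUSG00000010609; chr1:180227004-180263438, minus strand) encodes presenilin 2, one of the alternative catalytic subunits. It passed with GH, where SHAM-GH libraries held 7.04, 7.43 and 6.97 FPKM, PEL_3d-GH libraries 10.5, 9.76 and 9.84 FPKM and PEL_10d-GH libraries 7.96, 9.37 and 10.6 FPKM. The log2 fold change was 0.48 ± 0.10 at day 3 (SE; adjusted p = 0.00251) and 0.37 ± 0.12 at day 10 (SE; adjusted p = 0.038), and the groups did not overlap at either time. The day 10 call was lost when any library but PEL_10d-GH replicate 1 was left out (adjusted p between 0.0824 and 0.137), and DESeq2 gave an adjusted p of 0.0515. Without GH the PEL_3d libraries (10.6, 8.45 and 9.50 FPKM) and the PEL_10d libraries (9.31, 8.79 and 7.68 FPKM) overlapped SHAM (7.57 and 8.86 FPKM). There it did not pass, except at day 3 (*n* = 2) when PEL_3d replicate 2 was left out (log2 fold change 0.33, adjusted p = 0.0493). The lesion effects with and without GH at day 3 differed by 0.26 ± 0.16 on the log2 scale (SE; edgeR interaction term, adjusted p = 0.626).

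Promoter sequences are given for the 3 genes that rose at day 3 with and without GH, since they share that course. RefSeq windows on GRCm38.p6, from 250 bases before to 50 bases after a gene's start, were found for 7 of the 9 genes. The stretch from 250 to 41 bases before the start is printed 5′ to 3′ on the gene's strand, and capitals mark GGGCGG or its reverse complement CCGCCC, the core of the GC box. *Adam10* lies at chr9:70678732-70678941 (plus strand), *Aph1a* at chr3:95893671-95893880 (plus strand) and *Ncstn* at chr1:172082790-172082999 (minus strand).
Adam10: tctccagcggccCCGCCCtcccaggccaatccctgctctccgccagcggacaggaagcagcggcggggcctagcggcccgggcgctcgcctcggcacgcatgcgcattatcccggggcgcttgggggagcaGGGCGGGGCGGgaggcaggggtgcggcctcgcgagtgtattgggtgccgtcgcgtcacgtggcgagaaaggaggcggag
Aph1a: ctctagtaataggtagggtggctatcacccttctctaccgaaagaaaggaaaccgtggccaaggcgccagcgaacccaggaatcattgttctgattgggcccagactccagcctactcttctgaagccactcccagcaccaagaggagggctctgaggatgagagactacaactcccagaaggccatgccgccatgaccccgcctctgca
Ncstn: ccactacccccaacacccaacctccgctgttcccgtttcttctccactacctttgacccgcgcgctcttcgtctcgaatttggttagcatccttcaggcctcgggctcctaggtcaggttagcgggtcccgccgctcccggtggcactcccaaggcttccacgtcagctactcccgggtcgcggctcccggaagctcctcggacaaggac
In the 210 bases shown *Adam10* held 3 GC boxes, of which 2 share 1 base, and *Aph1a* and *Ncstn* held 0. Over the whole windows the numbers were 3, 1 and 0, and at least 1 was found in 35.7% of 32851 mouse promoter windows of that length. CCAAT on either strand occurred 2 times in *Adam10*, 2 times in *Aph1a* and 0 times in *Ncstn* (37.4% of windows). TATAAA was in none of the 3 (13.6% of windows), and CACGTG, the E-box, was in *Adam10* alone of the 3 (7.15% of windows). CpG dinucleotides numbered 32, 10 and 25. Of the motifs searched, none was in all 3 windows.

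*Mme* (ENSMUSG00000027820; chr3:63241537-63386030, plus strand) encodes neprilysin, a membrane protease that degrades amyloid beta, and had the lowest level of the 9. SHAM-GH libraries held 3.94, 3.36 and 3.09 FPKM, above 2.44 and 1.32 FPKM in SHAM and 2.74 FPKM in the library labelled SHAM replicate 1. PEL_3d-GH libraries held 1.29, 1.96 and 1.54 FPKM and PEL_10d-GH libraries 2.26, 2.22 and 2.64 FPKM, so that the SHAM-GH libraries were the highest of the 3 groups. Against SHAM-GH, *Mme* fell by 1.12 ± 0.15 on the log2 scale at day 3 (SE; adjusted p = 0.000154) and by 0.57 ± 0.13 at day 10 (SE; adjusted p = 0.00763). The day 10 call was lost when the spread was estimated over all groups (adjusted p = 0.213, and 0.103 without the 2 libraries that stand apart). Without GH, PEL_3d (1.62, 1.88 and 2.09 FPKM) and PEL_10d (1.45, 2.76 and 3.70 FPKM) overlapped SHAM. SHAM-GH against SHAM (*n* = 2) gave 0.74 ± 0.20 (SE; adjusted p = 0.11), and the lesion effects with and without GH at day 3 differed by -0.94 ± 0.29 (SE; edgeR interaction term, adjusted p = 0.264). A difference in the lesion effect of *Mme* by GH was therefore not shown.

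*Ide* (ENSMUSG00000056999; chr19:37268743-37337852, minus strand) encodes insulin-degrading enzyme, a soluble protease for insulin and amyloid beta. It was the least reproducible of the 9 genes. SHAM libraries held 11.7 and 17.5 FPKM (12.5 FPKM in the library labelled replicate 1), PEL_3d libraries 15.6, 13.7 and 32.6 FPKM and PEL_10d libraries 13.04, 19.2 and 20.1 FPKM. The highest PEL_3d library was 2.38 times the lowest. With GH the libraries lay closer, at 17.2, 18.01 and 17.5 FPKM in SHAM-GH, 15.7, 16.9 and 21.1 FPKM in PEL_3d-GH and 19.4, 20.5 and 21.0 FPKM in PEL_10d-GH. Of the lesion comparisons PEL_10d-GH against SHAM-GH passed, with a log2 fold change of 0.19 ± 0.05 (SE; adjusted p = 0.0267). That call was lost when any library but PEL_10d-GH replicate 1 was left out (adjusted p between 0.0563 and 0.106). It was also lost when the spread was estimated over all groups (adjusted p = 0.703, and 0.614 without the 2 libraries that stand apart). With the replicate block *Ide* also passed against SHAM (*n* = 2), by 0.57 in PEL_3d (adjusted p = 0.000823) and by 0.44 in PEL_10d (adjusted p = 0.0239), where without the block it did not.

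*Mapt* (ENSMUSG00000018411; chr11:104231390-104332090, plus strand) encodes tau and fell at day 3. SHAM libraries held 156 and 145 FPKM, but 86.0 FPKM was measured in the library labelled SHAM replicate 1, below every PEL_3d library (114, 128 and 100 FPKM). That order is on the FPKM scale. In counts the same library held 6221 of 15313672, a share not below the 6443 of 16075413 in PEL_3d replicate 3. Without the library labelled SHAM replicate 1 *Mapt* fell by 0.46 ± 0.08 on the log2 scale in PEL_3d (SE; adjusted p = 0.000892). In PEL_3d-GH (89.9, 89.1 and 115 FPKM) it fell by 0.51 ± 0.09 against SHAM-GH (138, 156 and 140.2 FPKM; SE; adjusted p = 0.000921). At day 10 the PEL_10d libraries (115, 126 and 123 FPKM) lay below both SHAM libraries, a fall of 0.26 ± 0.07 (SE; adjusted p = 0.0469), and that call was lost in each of the 5 fits that left out 1 library (adjusted p between 0.0579 and 0.281), with the replicate block (adjusted p = 0.0597) and in 1 fit over all groups (adjusted p = 0.113). PEL_10d-GH libraries (144, 116 and 116 FPKM) overlapped SHAM-GH, and *Mapt* did not pass there. Without PEL_10d-GH replicate 1 it passed in edgeR, lower by 0.24 on the log2 scale (adjusted p = 0.00747).

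From day 3 to day 10 the 3 genes that had risen came down. In PEL_10d against PEL_3d 4 of 9 genes passed, *Bace1* higher and *Adam10*, *Aph1a* and *Ncstn* lower (18.5% of all genes passed, 6.33% higher and 12.2% lower). FPKM of the groups did not overlap for *App*, *Bace1*, *Adam10* and *Ncstn*, beside 35.2% of all genes, and overlapped for *Aph1a*. *Adam10* fell by 0.35 ± 0.06 on the log2 scale (SE; adjusted p = 0.00569), a call kept whichever library was left out. *Ncstn* fell by 0.25 ± 0.07 (SE; adjusted p = 0.0296) and *Aph1a* by 0.33 ± 0.10 (SE; adjusted p = 0.0431), while *Bace1* was 0.20 ± 0.06 higher (SE; adjusted p = 0.0391). *Ncstn* and *Aph1a* kept their calls without PEL_3d replicate 2 or PEL_10d replicate 1, but lost them without PEL_3d replicate 1 or 3 or PEL_10d replicate 2 or 3 (adjusted p between 0.0771 and 0.153). *Bace1* passed in 1 of the 6 such fits, that without PEL_10d replicate 1, and otherwise had an adjusted p between 0.0611 and 0.158. In 1 fit over all groups only *Adam10* passed of these 4, and without the libraries that stand apart that fit kept all 4 calls. Beyond these 4, *Mapt* passed, higher, with DESeq2 (log2 fold change 0.21, adjusted p = 0.0423). *Mme* passed, higher, in edgeR without PEL_10d replicate 1 (0.78, adjusted p = 0.0243). In PEL_10d-GH against PEL_3d-GH the same 4 passed in the same directions together with *Mme*, which was 0.54 ± 0.13 higher (SE; adjusted p = 0.0254). Of all genes 15.6% passed, 4.81% higher and 10.8% lower. There *Adam10* fell by 0.53 ± 0.10 (SE; adjusted p = 0.00969), *Ncstn* by 0.43 ± 0.08 (SE; adjusted p = 0.00747) and *Aph1a* by 0.34 ± 0.07 (SE; adjusted p = 0.0175), and *Bace1* was 0.23 ± 0.06 higher (SE; adjusted p = 0.0415). With the replicate block *Adam10* and *Ncstn* kept their calls, and *Mme* also lost its call in 1 fit over all groups (adjusted p = 0.249, and 0.138 without the 2 libraries that stand apart). *Mapt* and *App* passed, higher, with DESeq2 (adjusted p = 0.0161 and 0.0403) and in 1 fit over all groups without those 2 libraries (adjusted p = 0.00831 and 0.013). Without PEL_3d-GH replicate 1 none of the 5 passed, and without PEL_3d-GH replicate 3 7 of 9 did. Without PEL_10d-GH replicate 1, 2 or 3 the numbers were 2, 1 and 3, and without PEL_3d-GH replicate 2 the number was 2.

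Within a condition no gene of the 9 passed edgeR's test for GH. In PEL_3d-GH against PEL_3d and in PEL_10d-GH against PEL_10d 0 of 9 passed edgeR's test, 0 passed DESeq2's and 0 had an unadjusted p under 0.05, where 0.0270% and 0% of all genes passed. FPKM of the groups did not overlap for 3 of 9 and 0 of 9 (12.1% and 11.5% of all genes). The 3 were *App* and *Bace1*, lower with GH, and *Aph1a*, higher. In SHAM-GH against SHAM 2 of 9 did not overlap (16.4%), or 3 of 9 without the library labelled SHAM replicate 1 (31.0%). Over all genes PEL_10d-GH against PEL_10d gave 550 higher and 356 lower at an unadjusted p under 0.05, and DESeq2 called 36. In SHAM-GH against SHAM 0 of 9 passed by edgeR or DESeq2, with 0 at an unadjusted p under 0.05 (0% of all genes, with 338 higher and 449 lower at an unadjusted p under 0.05 and 12 called by DESeq2). Without the library labelled SHAM replicate 1, 0 of 9 passed by edgeR, 2 had an unadjusted p under 0.05 and DESeq2 called 1 (1.09% of all genes, 0.798% higher and 0.296% lower). *Mme* was the gene DESeq2 called, higher in SHAM-GH by 0.74 (adjusted p = 0.0441), and it also passed in edgeR without the filter on low counts (adjusted p = 0.0281), with the replicate block (adjusted p = 0.0133) and without SHAM replicate 2 (adjusted p = 0.0408). *Ide* passed with the block (log2 fold change 0.32, adjusted p = 0.023) and without SHAM replicate 3 (adjusted p = 0.0181). These 2 were named after their values were seen. The lesion effects with and without GH did not differ past the threshold for any of the 9 genes at either time by edgeR or DESeq2 (0 of 9, where 0.0462% of all genes passed at day 3 and 0% at day 10, with 676 higher and 690 lower at an unadjusted p under 0.05 and 98 called by DESeq2 at day 10). Among the 9, 2 had an unadjusted p under 0.05 at day 3 and 1 at day 10.

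In the hippocampus no gene of the 9 passed the test at day 10. By edgeR 0 of 9 passed with all 6 libraries (0% of all 14039 genes, with 510 higher and 924 lower at an unadjusted p under 0.05 and 231 called by DESeq2) and 0 of 9 without the library labelled HIP-SHAM replicate 1 (6.15% of all genes). DESeq2 also called 0 of 9 in both, and 1 of 9 had an unadjusted p under 0.05 in each. *App* was measured at 577, 546 and 532 FPKM in HIP-PEL_10d and at 545 and 541 FPKM in HIP-SHAM, so the groups overlapped. *Bace1* was the 1 gene of the 9 whose groups did not overlap, at 29.3, 30.1 and 28.9 FPKM in HIP-PEL_10d against 25.3 and 25.4 FPKM, with 24.3 FPKM in the library labelled HIP-SHAM replicate 1. Its log2 fold change was 0.19 ± 0.06 (SE; *n* = 2 for HIP-SHAM; adjusted p = 0.0793), and groups of 42.3% of all genes did not overlap there either. *Mapt* (110.0, 107 and 98.7 against 104 and 111 FPKM) and *Adam10* (21.4, 21.7 and 19.8 against 22.2 and 21.4 FPKM) overlapped. *Mme* had a log2 fold change of -0.28 (adjusted p = 0.376), and of -0.60 with all 6 libraries (adjusted p = 0.519). With the replicate block *Ide* alone of the 9 passed, at 0.36 (adjusted p = 0.0226, *n* = 2). The effect of the lesion did not differ past the threshold between hypothalamus and hippocampus for any of the 9 genes, with or without the 2 libraries (0 of 9 by edgeR and DESeq2, where 0.630% and 10.7% of all genes passed). Unadjusted p-values under 0.05 numbered 1 with those libraries and 3 without them. The hippocampal groups also differed in summed choroid plexus markers, at 38.5 to 797 FPKM in HIP-PEL_10d and 4329 to 5423 FPKM in HIP-SHAM (*n* = 2). Summed oligodendrocyte markers ranged from 1985 to 4035 FPKM in HIP-PEL_10d and from 3175 to 3423 FPKM in HIP-SHAM (*n* = 2). The part of these markers in the hippocampal results was not tested.

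Between the lesioned tissues at day 10, *App* and *Bace1* were lower in the hypothalamus. These were the 2 of 9 genes that passed (60.6% of all genes), *App* by 0.40 ± 0.06 and *Bace1* by 0.42 ± 0.06 on the log2 scale (SE; adjusted p = 0.000239 and 0.000151). Every PEL_10d library lay below every HIP-PEL_10d library for both genes. FPKM did not overlap for 7 of 9 genes (68.7% of all genes), and *Psen2*, *Adam10*, *Aph1a*, *Ncstn* and *Mapt* lay higher in the hypothalamus, by 37.7%, 29.8%, 38.1%, 33.3% and 15.6% of mean FPKM, without passing. Scaling by library size without TMM moved the median log2 fold change of all genes from 0.02 to 0.26 and the split of calls from 4501 higher and 4321 lower to 6842 and 2590. Under that scaling *App* and *Bace1* passed with smaller log2 fold changes of -0.16 and -0.18 (adjusted p = 0.03 and 0.0159), and these 5 passed too, higher, so that 7 of 9 passed in place of 2. *Mapt* changed sign, from -0.06 to 0.18. The ratio of mean FPKM was 0.898 for *App* and 0.851 for *Bace1*. Cell type markers differed as well, 7 of 8 neuron markers being lower in the hypothalamus (median log2 fold change -1.02) and 6 of 8 microglial markers higher (median 0.55), and their part in these results was not tested.

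Other genes of the pathway were taken from a list of 76 genes in 9 roles that includes the 9, and 75 were tested in each comparison of lesioned with Sham hypothalamus. In PEL_3d-GH against SHAM-GH 25 rose and 27 fell (26.9% of all genes rose and 25.1% fell), with a median log2 fold change of -0.09, beside 0.00 over all genes. In PEL_3d against SHAM (*n* = 2) 22 rose and 17 fell (22.3% and 18.2% of all genes), with a median of -0.02. With the library labelled SHAM replicate 1 included 13 rose and 1 fell (10.4% and 1.04% of all genes), and the counts without GH in the rest of this list leave that library out unless stated. Alpha-secretases were higher throughout at day 3. *Adam17*, also known for releasing tumour necrosis factor, and *Adam9* passed beside *Adam10*, so that 3 of 3 rose with and without GH, and *Adam17* reached 14.0 ± 2.29 FPKM in PEL_3d-GH against 3.89 ± 0.325 FPKM in SHAM-GH (SD, n = 3). Of 7 gamma-secretase genes 5 rose and 1 fell with GH. *Psenen*, which encodes PEN-2, rose by 0.29 ± 0.10 on the log2 scale (SE; adjusted p = 0.0306), while *Aph1b* fell by 0.32 ± 0.08 (SE; adjusted p = 0.00827). *Aph1b* and *Aph1c* are near-identical copies, and how reads were shared between them is not stated. Without GH 2 of the 7 rose, *Aph1a* and *Ncstn*, and 1 fell, *Aph1b*. With the library labelled SHAM replicate 1, 3 of 3 alpha-secretases and 1 of the 7 gamma-secretase genes rose, and none fell.

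Genes for clearance and transport held the largest changes of the list. Of 16, 9 rose and 1 fell at day 3 with GH (median log2 fold change 0.59), and 11 rose and 1 fell without it (median 0.55), or 5 rose and 0 fell with the library labelled SHAM replicate 1 (median 0.61). Over all genes 26.9% rose and 25.1% fell with GH, 22.3% and 18.2% without it, and 10.4% and 1.04% with that library. *Msr1*, a scavenger receptor of macrophages, was at 19.6 ± 6.77 FPKM in PEL_3d-GH and 0.221 ± 0.0338 FPKM in SHAM-GH (SD, n = 3). *Trem2*, a receptor of microglia that binds lipids and amyloid, was at 79.3 ± 7.85 against 5.29 ± 0.432 FPKM, and *Cd36*, a scavenger receptor for oxidised lipids, at 35.9 ± 10.7 against 2.26 ± 0.310 FPKM (SD, n = 3). At day 10 with GH 9 of the 16 were higher and 1 lower (17.7% and 13.3% of all genes), with *Trem2* at 52.3 ± 13.4 FPKM and *Msr1* at 2.37 ± 1.49 FPKM (SD, n = 3). Among 11 tested degrading enzymes 4 rose and 4 fell at day 3 with GH. *Ctsb*, the lysosomal cathepsin B, was at 675 ± 116 FPKM in PEL_3d-GH against 136 ± 0.396 FPKM in SHAM-GH (SD, n = 3), while *Mme* was the largest fall.

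Most other genes of microtubule-associated proteins fell together with *Mapt*. Of 6 genes, *Mapt* included, 5 were lower at day 3 with GH and 5 without it (medians -0.55 and -0.34). Of all genes 25.1% and 18.2% were lower. The exception was *Map4*, a form found in many cell types. With the library labelled SHAM replicate 1 included 0 of 6 passed in PEL_3d against SHAM (median -0.25). *Map2*, the dendritic form, fell by 0.58 ± 0.07 in both comparisons (SE; adjusted p = 7.82e-05 with GH and 0.000111 without). Of 10 tau kinases and phosphatase genes 1 rose and 5 fell with GH, and 0 rose and 3 fell without it, or 0 and 1 with that library. *Cdk5r1*, the activator of the tau kinase CDK5, fell by 0.63 ± 0.07 with GH (SE; adjusted p = 3.44e-05). *Aplp1* and *Aplp2*, the homologs of *App*, fell by 0.39 ± 0.11 and 0.19 ± 0.06 with GH (SE; adjusted p = 0.012 and 0.0265), so that 3 of 3 in that role were lower with GH. Without GH 1 of the 3 was lower, and 0 with the library labelled SHAM replicate 1. *Bace2*, the homolog of *Bace1*, was higher at day 10 (0.85 with GH and 0.78 without on the log2 scale), while *Bace1* did not pass there. With the library labelled SHAM replicate 1 neither passed at day 10 without GH.

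**Figure D3:**
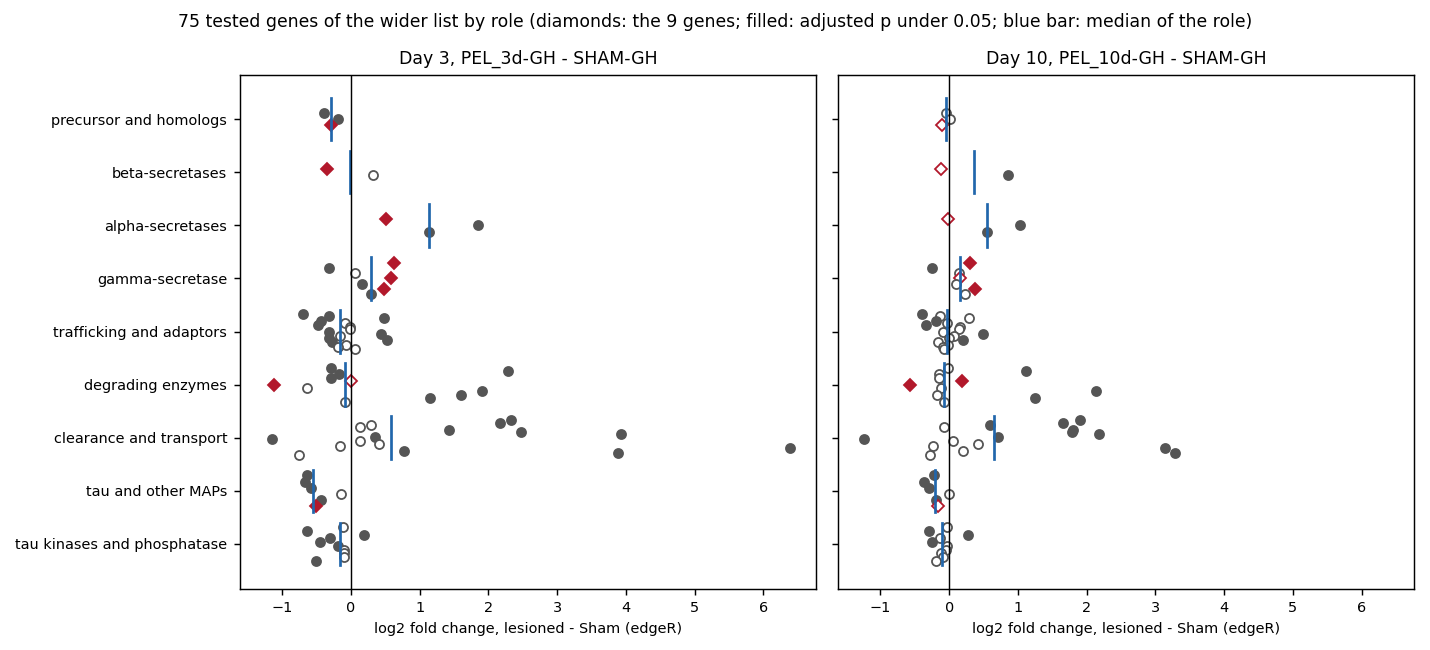
Log2 fold change (x axis, edgeR, lesioned minus Sham, with GH) of the 75 tested genes by role (y axis) at day 3 (left) and day 10 (right); diamonds are the 9 genes, filled symbols passed the adjusted p threshold and blue bars are the medians of each role. Most microtubule-associated protein genes lie left of 0 at day 3 and several clearance genes lie right of 2 at both times.

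Cell type markers moved with these groups. At day 3 with GH 8 of 8 microglia and macrophage markers rose and 7 of 8 neuron markers fell, and without GH the numbers were 8 of 8 and 6 of 8, or 8 of 8 and 1 of 8 with the library labelled SHAM replicate 1. Summed microglial markers ranged from 656 to 886 FPKM in PEL_3d-GH and from 638 to 773 FPKM in PEL_3d, against 82.8 to 101 FPKM in SHAM-GH and 106 to 109 FPKM in SHAM. At day 10 they ranged from 281 to 352 FPKM in PEL_10d and from 413 to 506 FPKM in PEL_10d-GH. Summed neuron markers ranged from 1124 to 1357 FPKM in PEL_3d-GH and from 1243 to 1466 FPKM in PEL_3d, against 1565 to 1761 FPKM in SHAM-GH and 1589 to 1598 FPKM in SHAM. At day 10 with GH 7 of 8 neuron markers fell, and without GH (*n* = 2) 2 of 8, or 0 of 8 with the library labelled SHAM replicate 1. Of 6 oligodendrocyte markers 6 rose in PEL_10d-GH against SHAM-GH, and 6 from day 3 to day 10 both with and without GH. In PEL_10d against SHAM (*n* = 2) 3 of these markers rose (median log2 fold change 0.49), or 0 with the library labelled SHAM replicate 1 (median -0.07). Summed, they ranged from 3832 to 4315 FPKM in PEL_10d-GH and from 3290.0 to 3464 FPKM in PEL_10d, against 2263 to 2669.5 FPKM in PEL_3d-GH and 2283 to 2377 FPKM in PEL_3d. Of 6 astrocyte markers 4 rose and 2 fell at day 3 with GH. None of the microglial, neuron or astrocyte markers was at 0 in any library. In bulk tissue fewer cells of a type and less RNA per cell cannot be told apart, and the part of these markers in the results for the 9 genes was not tested. In the hippocampus (*n* = 2 for HIP-SHAM) 0 of 8 microglial markers passed and 2 of 8 neuron markers fell, while 1 of 6 astrocyte markers rose. With all 6 libraries 0 of each passed, and the median log2 fold change of the neuron markers was 0.07, beside -0.08 with *n* = 2. The log2 fold changes of the 8 microglial markers lay between 0.13 and 0.67 with *n* = 2 (median 0.34). Their summed levels did not overlap, at 128 to 159 FPKM in HIP-PEL_10d against 108.8 to 109.3 FPKM in HIP-SHAM. Summed endothelial markers ranged from 89.0 to 90.7 FPKM in PEL_3d and from 63.4 to 81.8 FPKM in PEL_3d-GH, against 57.0 to 57.7 FPKM in SHAM and 51.4 to 58.3 FPKM in SHAM-GH. Summed blood markers were at 44.9 to 213 FPKM in PEL_10d-GH against 17.1 to 21.8 FPKM in SHAM-GH, and at 49.4 to 144 FPKM in HIP-PEL_10d against 21.6 to 37.1 FPKM in HIP-SHAM.

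A few further genes of the list passed in the hippocampus without the library labelled HIP-SHAM replicate 1, where 3 of 72 tested rose and 2 fell (6.15% of all genes passed). With all 6 libraries 0 of the 72 passed. *Ace*, which encodes angiotensin-converting enzyme, was at 3.45 ± 1.42 FPKM in HIP-PEL_10d (SD, n = 3) and 25.9 ± 4.42 FPKM in HIP-SHAM (SD, n = 2). Choroid plexus markers moved with it, at 38.5 to 797 FPKM summed in HIP-PEL_10d and 4329 to 5423 FPKM in HIP-SHAM, and their part in the result was not tested. *Aph1c* was lower by 0.78 ± 0.15 and *Ece2*, an endothelin-converting enzyme, higher by 0.59 ± 0.12 on the log2 scale (SE; adjusted p = 0.0243 and 0.0354).

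*Ide* varied widely within groups. Its median coefficient of variation within a group was 25.3%, above that of 99.1% of 5292 genes of similar level (within a factor of 2), whereas *Bace1* and *App* were among the steadiest of genes of their level at 1.81% and 2.13%. Over the 17 hypothalamic libraries the gene whose pattern was most like *Ide* was *Btaf1* (Pearson r = 0.85 of log2(FPKM + 1)), a transcription factor that lies at chr19:36926079-37012752. *Btaf1* was at 5.34, 4.87 and 7.93 FPKM in PEL_3d and at 5.20, 6.43 and 7.95 FPKM in HIP-PEL_10d, where *Ide* was at 10.4, 15.8 and 21.4 FPKM. The library with the highest *Ide* also had the highest *Btaf1* in 6 of 8 groups, and the lowest libraries coincided in 4 of 8. Over 13349 genes the median shared the highest library in 2 groups, and 0.689% had as many as *Btaf1* or more for the highest and 22.0% for the lowest. *Btaf1* was chosen as the gene most like *Ide*, so these counts are a description. *Fgfbp3* (chr19:36917550-36919615), next to *Btaf1*, shared the highest library with *Ide* in 7 of 8 groups and the lowest in 2 of 8, at 32 to 81 counts per library, and it was named after its values were seen. *Cpeb3* and *March5*, which lie between *Btaf1* and *Ide*, did so in 0 and 1 of 8 groups, and *Kif11* and *Hhex* beyond *Ide* in 3 and 5. The median coefficient of variation of *Fgfbp3* within a group was above that of 59.77% of genes of similar level. For *Btaf1* it was above that of 89.7%. A stretch that includes *Ide* and *Fgfbp3* is known to vary in copy number among C57BL/6J mice. By position, an unbroken stretch holding both would also hold *Btaf1*, *Cpeb3* and *March5*. Genomic DNA was not measured, and the part of copy number in these levels was not tested.

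**Figure D4:**
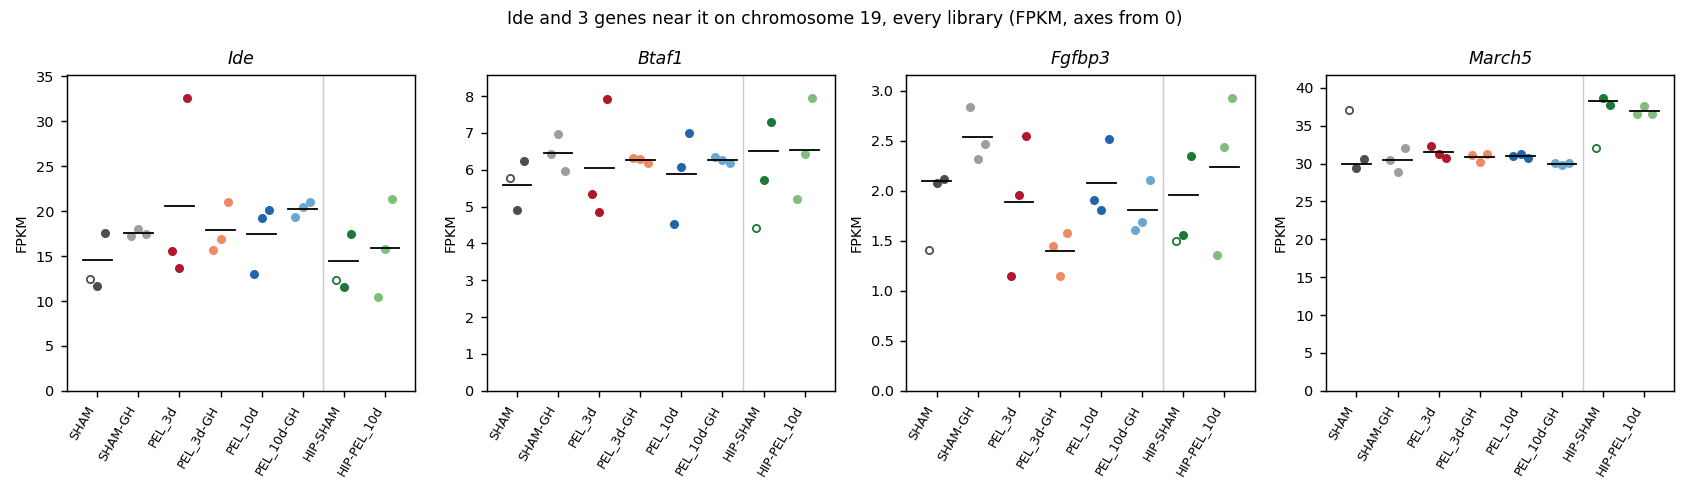
FPKM (y axes, from 0) of *Ide*, *Btaf1*, *Fgfbp3* and *March5* in every library by group (x axis), with symbols as in the plot of the 9 genes by library. Replicate 3 of PEL_3d and of HIP-PEL_10d is the highest of its group for *Ide*, *Btaf1* and *Fgfbp3*, and *March5* does not show that spread.

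The other 8 genes fell into patterns of opposite course across the 17 hypothalamic libraries. *Ncstn* followed *Aph1a* (r = 0.89) and *Adam10* (r = 0.84) and ran against *Mapt* (r = -0.90) and *App* (r = -0.89), while *App* followed *Bace1* (r = 0.90) and *Mapt* (r = 0.82). *Ide* had values between -0.26 and 0.18 with each of the other 8. The libraries share the same lesion groups, so that these values describe the groups as much as the genes. The genes most like *App* were *Cyfip2*, *Ank3* and *Gnao1* (r = 0.97, 0.97 and 0.96), and those most like *Mapt* were *Ctnna2*, *Cadm3* and *Bri3bp* (r = 0.97, 0.97 and 0.96). For *Ncstn* they were *Akr1b8*, *Cpt1a* and *Pgd* (r = 0.98, 0.97 and 0.97).

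Of the 9 genes, 3 overlap another gene of the table. *Ncstn* overlaps *Copa*, *Aph1a* overlaps *Car14* and *Bace1* overlaps *Rnf214*, each on the opposite strand. The strand setting of the counting is not given in the sources used here, so reads from the shared bases cannot be told apart. *App*, *Psen2*, *Mapt* and *Ide* also overlap annotated genes that were not analysed here, among them *Rpl10-ps6*, which lies on the strand of *Ide*.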

How the data were processed

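Hypothalamus and hippocampus RNA was sequenced in 24 mRNA libraries (SMARTER mRNA-Seq kit). According to the study's methods, reads were aligned with Hisat2 and counted with featureCounts, and the labels name GRCm38/mm10. The authors deposited estimated counts and FPKM for 22274 genes. Of the deposited count values 8.22% are not whole, so counts were rounded. Symbols came from gene identifiers (22219 matched), and positions from GENCODE on GRCm38.

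Groups and replicate numbers came from the labels. Each comparison was fitted on its groups alone with edgeR 4.0.16 (quasi-likelihood, TMM, filterByExpr with a minimum count of 10, Benjamini-Hochberg adjustment, threshold 0.05) in R 4.3.3, which was tested on simulated data. Levels, ranges and means ± SD are in FPKM as deposited. Marker levels were summed FPKM, and likeness was Pearson r of log2(FPKM + 1) among genes of mean FPKM 1 or more.

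The rule for named genes was all 9 genes, the 3 genes most like each, and the 3 largest changes past the threshold in the wider list per comparison, of which some are given. Other genes of that list, and the interaction of GH with the lesion, were chosen for the text after their values were seen. The members and lists were chosen with earlier results of these data known. Alternatives were DESeq2 1.42.0 and its size factors, library size alone, no filter, the replicate block, one fit over all groups, and each library left out. A few genes that the rule or the lists would name are not reported here.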

Additional observations from a re-analysis of the deposited data

How the results depend on the processing

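No call among the 9 genes changed sign under any setting run. Of values that did not pass, 3 were followed through the settings. *Bace1* in the hippocampus without HIP-SHAM replicate 1 kept its side of the threshold, and *Mme* in SHAM-GH against SHAM without SHAM replicate 1 passed, higher, under 4 settings. *App* in that hippocampal comparison was at 0.0010 and changed sign, to -0.0008 with DESeq2 and with its size factors, -0.0034 without the filter and -0.0252 with the replicate block, and between -0.0252 and 0.0103 with 1 library left out. The 8 calls in PEL_3d-GH against SHAM-GH and the 4 in PEL_3d against SHAM without the library labelled SHAM replicate 1 were kept under every setting run. For the other comparisons the cause of a change was not tested. No comparison was treated as paired, because correlations of deviations between same-numbered libraries were never over 0.1 in every pair. That rule cannot exclude pairing. The correlations ran from -0.864, between the libraries labelled SHAM replicate 1 and HIP-SHAM replicate 1, to 0.391. In PEL_10d against PEL_3d they ran from 0.09 to 0.391.

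With the replicate block, PEL_3d against SHAM called 980 genes and 0 of the 9, PEL_10d against SHAM 0 genes (*Ide* was gained in both comparisons without SHAM replicate 1), PEL_10d-GH against PEL_3d-GH 1109 genes and 2 of the 9, and PEL_3d-GH against PEL_3d 1 gene. SHAM-GH against SHAM without its replicate 1 called 317 and 2 of the 9, the hippocampus without HIP-SHAM replicate 1 1487 and 1 of the 9, and the interaction of GH and lesion at day 3 0. DESeq2 called 2794 genes in PEL_3d against SHAM, 700 in PEL_10d against SHAM, 59 in PEL_3d-GH against PEL_3d, 36 in PEL_10d-GH against PEL_10d and 12 in SHAM-GH against SHAM. It called 256 and 1 of the 9 in the latter without SHAM replicate 1, 231 in the hippocampus, 554 for region by lesion, and 144 and 98 for GH by lesion at days 3 and 10. With DESeq2's size factors in edgeR 1 of the 9 passed in PEL_3d against SHAM, and 58 genes for region by lesion. Without the filter the counts were 8 in PEL_3d-GH against PEL_3d, 360 and 1 of the 9 in SHAM-GH against SHAM without SHAM replicate 1, 62 for region by lesion, and 19 and 12 for GH by lesion. Library size alone gave 2 genes in PEL_3d-GH against PEL_3d, 1 in the hippocampus, and 7 of the 9 between regions.

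One fit over all groups called 4476 genes and 6 of the 9 in PEL_3d against SHAM, 982 genes in PEL_10d against SHAM (0 of the 9 without SHAM replicate 1), 1957 and 1 of the 9 in PEL_10d-GH against SHAM-GH, and 1531 and 1 of the 9 in PEL_10d against PEL_3d. It called 0 in PEL_3d-GH against PEL_3d, 7 in SHAM-GH against SHAM (13 without SHAM replicate 1) and 5739 between regions. Without the 2 libraries that stand apart it called 2 of the 9 in PEL_10d-GH against SHAM-GH, 4120 genes in PEL_10d-GH against PEL_3d-GH, 9 in PEL_3d-GH against PEL_3d, 2 in PEL_10d-GH against PEL_10d, and 4 of the 9 between regions.

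Leaving out 1 library gave these ranges. PEL_3d against SHAM called 821 to 6025 genes and 0 to 4 of the 9, and 3395 to 6632 and 4 to 5 without SHAM replicate 1. PEL_10d against SHAM called 0 to 1393 and 0 to 1, and 205 to 1486 and 0 to 0 without it. PEL_3d-GH against SHAM-GH called 6232 to 8808 and 8 to 8, PEL_10d-GH against SHAM-GH 3114 to 5374 and 1 to 5, PEL_10d against PEL_3d 1333 to 2800 and 1 to 5, and PEL_10d-GH against PEL_3d-GH 704 to 4435 and 0 to 7. PEL_3d-GH against PEL_3d called 1 to 56 genes, SHAM-GH against SHAM 0 to 159, and 44 to 190 with 0 to 1 of the 9 without SHAM replicate 1. The hippocampus gave 0 to 873, and 71 to 1746 without HIP-SHAM replicate 1, and the regions 7919 to 8815 and 2 to 3. Region by lesion gave 0 to 284, and 602 to 2244 without the 2 libraries, and GH by lesion 0 to 633 at day 3 and 0 to 48 at day 10. Groups of 3 libraries limit what can be detected.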
